A study of Rattus norvegicus with 15 samples.

Results

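The baseline transcriptome of the subfornical organ was described from the control arrays of a rat study of water and food deprivation. These were the 5 arrays whose titles name them as controls, of 15 arrays in all. Each array carried RNA pooled from 5 rats, so that 25 animals stand behind the values. The animals were male Sprague Dawley rats aged 10 to 12 weeks, with no transgene and no agent named. Labels of the control samples call them untreated and give no deprivation, whereas the design text, read literally, denies food for 48 hours to the animals of every condition. The feeding state of the control animals therefore rests on the labels. The organ was cut under a dissecting microscope from a brain slice of 1 mm. The deprived groups were not compared with the controls here, and the 5 pools are the replicates.

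The subfornical organ is a small neural structure in the wall of the third ventricle, below the fornix. It is one of the circumventricular organs, whose fenestrated capillaries let circulating peptides and ions reach neurons directly, and it is known as a site where angiotensin II, sodium and osmolality act on drinking and blood pressure. Its ventricular face is covered by ependymal cells and tanycytes, the choroid plexus lies close by, and white matter of the fornix and hippocampal commissure adjoins it.

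Values are given as log2(signal + 16), where the signal is the deposited intensity of a probe set. They are listed in the order of pools 1 to 5, or as mean ± SD (n = 5 pools). Fold ranges of single genes are ratios of signal + 16, which are smaller than ratios of signal, most of all for low values. Where several probe sets measure a gene, the one with the highest mean stands for it. A gene is called bright when its mean reached the 90th percentile of all probe sets (8.30 on the log2 scale, a signal of 298), and dim when it lay below the 30th percentile (5.06, a signal of 17.3). A gene that was not dim is called variable when its SD reached 0.480, the 90th percentile of such SDs. Probe sets differ in how well they bind their target, so bright and dim describe a position in the signal distribution and do not rank transcripts by abundance.

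Of 14217 genes with a probe set of their own, 2377 were bright (16.7%) and 2711 were dim (19.1%). Of the 11506 genes that were not dim, 1151 were variable (10.0%), and their median SD was 0.205. Bacterial control probe sets marked the floor: the brightest of 27 reached a log2 value between 4.40 and 4.98 in the 5 pools. Genes of liver, pancreas, testis, muscle and other organs lay mostly near that floor, with 25 of 34 dim and none bright. Those above it included albumin (Alb) at 5.53, 6.73, 5.37, 4.82 and 4.71, highest in pool 2, and the keratin Krt10 at 6.39 ± 0.12. Of 10 pituitary and pineal genes, 6 were dim, prolactin (Prl) among them at 4.27 ± 0.28. Across all probe sets, correlations between pools ran from 0.918 (pools 2 and 5) to 0.981 (pools 1 and 3). The first principal component held 64.3% of the variance between pools and set pool 2 (score -40.3) against pool 5 (37.9). The second held 21.3% and set pool 4 (26.5) apart from the others, which scored between -13.9 and 3.4. The mean log2 ratio of 5′ to 3′ control probe sets of Actb and Gapdh, which falls with RNA breakdown and with short amplified products, was -1.64, -1.55, -1.24, -1.36 and -1.67. Pool 3 was highest in both genes, whereas pool 2 was lowest for Actb (-2.20) and pool 5 for Gapdh (-1.18), and the part of these ratios in the differences between pools was not tested.

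The receptor genes held fewer bright and more dim members than genes at large. Of 201 measured receptor genes, 14 were bright and 78 were dim, beside the 16.7% and 19.1% of all genes. Among the 123 that were not dim, 31 were variable (25.2%, against 10.0%). Their brightness is described by family.

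Agtr1a, the type 1 angiotensin receptor through which angiotensin II drives drinking, read 8.02, 6.14, 7.40, 8.20 and 7.39. It was the variable member of its list (7.43 ± 0.81): pool 2 lay clearly below the other pools, and pools 1 and 4 were highest. Another probe set of the gene had lower signal (6.33, 5.21, 6.11, 6.84 and 6.14) and again placed pool 4 highest and pool 2 lowest. In pooled tissue of this kind, fewer cells of a type and less RNA per cell cannot be told apart. Its paralogue Agtr1b was dim (4.68, 4.72, 4.66, 5.07 and 4.97), while Agtr2, the type 2 receptor, lay just above the dim level at 5.11, 4.96, 4.79, 5.26 and 5.59. Atp6ap2, the (pro)renin receptor and a subunit of the vacuolar proton pump, was bright and even across pools (10.05, 9.88, 10.08, 10.0 and 10.26). Of the natriuretic peptide receptors, Npr2, the receptor for C-type natriuretic peptide, read 8.16, 7.89, 8.15, 8.41 and 8.13, and Npr1, that for the atrial and brain peptides, 6.50, 6.62, 6.36, 7.11 and 6.09. Npr3, which clears these peptides, was dim in pools 1 to 4 and read 5.12 in pool 5. Aplnr, the apelin receptor, read 6.02, 6.75, 6.0, 6.04 and 5.43 and was highest in pool 2. Mas1, Lnpep, Bdkrb1 and Bdkrb2 were dim, so that 6 of 12 measured members of this list were.

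The promoter of Agtr1a is shown because the gene is the receptor most tied to the function of the organ. It is the RefSeq window from 250 bases before to 50 after the gene's start on build GRCr8 (chr17:34435383-34435682, minus strand, written 5′ to 3′ along the gene). Capitals mark a TATAAA motif.
Agtr1a: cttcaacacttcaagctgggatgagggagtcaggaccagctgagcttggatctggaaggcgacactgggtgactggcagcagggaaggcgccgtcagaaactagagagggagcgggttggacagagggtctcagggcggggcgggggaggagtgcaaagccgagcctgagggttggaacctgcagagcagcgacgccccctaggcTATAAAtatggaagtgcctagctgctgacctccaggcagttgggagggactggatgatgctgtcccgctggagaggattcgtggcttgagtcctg
The motif stood on either strand in 14.26% of 27457 rat promoters of this length, and a match is a description of letters only.

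Receptors for vasopressin and oxytocin were dim or at the edge of dim. Avpr1a read 4.73, 4.09, 4.50, 4.13 and 4.19, Oxtr 4.12, 4.05, 4.23, 4.22 and 4.17, and Avpr2 was dim as well. Avpr1b, the pituitary-type vasopressin receptor, lay just above the level at 5.10 ± 0.35. The relaxin and endothelin receptors are not analysed here.

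The calcium-sensing and calcitonin family stood well above the floor without being bright. Calcr, the calcitonin receptor, which forms amylin receptors with receptor activity-modifying proteins, read 7.62, 7.51, 7.63, 8.33 and 7.57. Pool 4 was highest, and the other 4 pools lay between 7.51 and 7.63. Another probe set of Calcr read 5.68, 4.52, 5.57, 5.83 and 5.74 and placed pool 2 apart below the rest. Of the modifying proteins, Ramp2 read 7.69, 7.62, 7.86, 8.14 and 7.77, Ramp1 6.97, 7.89, 6.95, 7.13 and 6.56, and Ramp3 was dim at 4.41, 4.65, 4.84, 4.78 and 4.83. Ramp1 was variable with pool 2 highest. Calcrl, the partner of these proteins in receptors for adrenomedullin and calcitonin gene-related peptide, was variable at 5.58, 5.07, 4.25, 5.44 and 5.25, falling below the dim level in pool 3. Another probe set of Calcrl was dim (4.39 ± 0.34) and placed pool 5 highest and pool 2 lowest. Casr, the calcium-sensing receptor, read 6.07, 5.60, 6.07, 6.54 and 5.79. Of the 5 members that were not dim, 3 (Casr, Calcr and Ramp2) were highest in pool 4 and lowest in pool 2.

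In the secretin receptor family, Adcyap1r1, the receptor for pituitary adenylate cyclase-activating polypeptide, led with 8.30, 8.55, 8.02, 8.19 and 6.76. Pools 1 to 4 were close and pool 5 lay below them, which made the gene variable (7.96 ± 0.70). The other probe sets of Adcyap1r1 were dim. Sctr, the secretin receptor, read 5.46, 5.53, 5.19, 5.91 and 5.43, Pth1r, the parathyroid hormone receptor, 5.71 ± 0.12, and Glp1r, the glucagon-like peptide 1 receptor, 5.20 ± 0.20. Vipr1, Vipr2, Pth2r, Glp2r and Gcgr were dim, 5 of 11.

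Hormone receptors of energy balance had the largest bright share of the receptor lists, but were not far from genes at large. Of 13, 3 were bright (23.1%, against 16.7% of all genes) and 2 dim (15.4%, against 19.1%). Lepr, the leptin receptor, varied most of those that bind adipose hormones, at 6.22, 4.91, 6.51, 5.45 and 7.61. Pool 5 was highest and pool 2 was below the dim level. Other probe sets of Lepr had lower signal. Those not dim (means 5.10 and 5.47) were again highest in pool 5, while some dim ones were highest in pool 1. Insr, the insulin receptor, was low and even (5.49, 5.66, 5.69, 5.50 and 5.98), and Igf1r read 7.52 ± 0.26. Adipor1, an adiponectin receptor, was bright at 8.97, 8.63, 9.42, 8.70 and 9.80 and variable, whereas Adipor2 read 6.01, 6.22, 6.49, 6.24 and 6.14. Ghsr, the ghrelin receptor, read 5.20, 5.15, 5.22, 5.23 and 5.54, with pool 5 apart. Prlr, the prolactin receptor, ranged from 6.59 to 11.09 (9.71, 6.59, 10.47, 7.43 and 11.09), which is 22.6-fold in signal on this scale. Ntrk2, the receptor of brain-derived neurotrophic factor, was bright and even on its brightest probe set (10.47, 10.56, 10.54, 10.55 and 10.27), while another read 7.69, 8.18, 7.97, 8.36 and 7.11 (SD 0.49), and its relative Ntrk3 was variable (6.73 ± 0.58). Lepr, Adipor1 and Prlr all followed the pool order 5, 3, 1, 4, 2 from highest to lowest, which is also the order of choroid plexus markers described further on, a list that includes Prlr. The part of choroid plexus RNA in their differences was not tested.

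Receptors for neuropeptides were the dimmest large group next to those for amines, with 19 of 37 dim and 1 bright. The bright one was Ntsr2, a neurotensin receptor of astrocytes, at 9.08, 10.15, 9.09, 8.87 and 8.0. Pool 2 was highest and pool 5 lowest. Tacr1, the substance P receptor, was the next by mean (6.48, 6.0, 6.08, 6.40 and 6.15), followed by Oprl1, the nociceptin receptor (6.09 ± 0.30), and Oprk1, the kappa opioid receptor (6.06 ± 0.40). Npy1r, a neuropeptide Y receptor, was variable at 5.56, 5.98, 5.18, 5.63 and 4.70, highest in pool 2 and lowest in pool 5. Hcrtr1, an orexin receptor, was variable at 5.10, 5.14, 4.23, 5.41 and 5.48, with pool 3 alone below the dim level. Galr2 (5.52 ± 0.38), Sstr3 (5.81 ± 0.18) and Sstr1 (5.50 ± 0.15) were measurable members of the galanin and somatostatin families. Npy2r, Mc4r, Galr1, Tacr3 and Kiss1r were among the dim members.

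Of 39 receptors for monoamines, acetylcholine and histamine, 22 were dim and 1 was bright. Htr2c, the serotonin receptor known for its abundance in choroid plexus, read 10.58, 8.77, 11.02, 9.60 and 11.38. It followed the same pool order as Prlr, over a 6.12-fold range. Hrh1, the histamine H1 receptor, read 6.72, 6.27, 6.29, 6.58 and 6.14, Chrna7, the alpha-7 nicotinic subunit, 6.05, 5.89, 6.03, 6.29 and 6.35, and Chrm3, a muscarinic receptor, 5.86, 5.95, 6.0, 5.77 and 5.86. These 3 were even across pools. Adra2a, an inhibitory adrenergic receptor, read 5.87 ± 0.25, and Adra1b 5.70 ± 0.29. Adra1a, Drd1, Htr1a and Chrm1 were dim.

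Subunits of glutamate, GABA and glycine receptors were brighter than the neuropeptide and amine receptors, but not than genes at large. Of 37, 4 were bright (10.8%, against 16.7% of all genes) and 8 dim (21.6%, against 19.1%). They were more variable, with 14 of 29 not dim (48.3%, against 10.0%). Gria2, the AMPA receptor subunit that limits calcium entry, read 9.90, 10.55, 9.65, 9.34 and 8.45. Gria3 read 7.56, 9.17, 7.47, 6.79 and 5.91, Grm3, a glial and neuronal metabotropic receptor, 7.79, 8.60, 7.23, 6.36 and 5.63, and Gabra2 6.78, 7.75, 6.44, 6.10 and 5.07. Each was highest in pool 2 and lowest in pool 5, as were 16 of the 29 (55.2%, against 15.5% of all genes not dim). Gabbr1, a subunit of the GABA-B receptor, was bright at 9.41, 10.02, 9.59, 9.61 and 8.78, and Gabrb1 and Gabrb2 were bright at 8.74 ± 0.33 and 8.33 ± 0.88. Gabre, the epsilon subunit of GABA-A receptors, departed from the others at 7.90, 6.75, 7.65, 8.57 and 7.38, with pool 4 highest and pool 2 lowest, the pattern of Agtr1a. Grin1, the obligatory NMDA receptor subunit, read 7.80, 8.03, 7.79, 7.90 and 7.14, with pool 5 apart below. Grik3, Grin2a, Gabra3 and Glra1 were dim.

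None of the 11 nuclear receptors was bright or variable. Nr3c1, the glucocorticoid receptor, read 8.41, 8.34, 8.19, 8.25 and 8.0, Thra, a thyroid hormone receptor, 8.01, 8.17, 8.44, 8.56 and 7.81, and Nr3c2, the mineralocorticoid receptor, 6.92, 7.02, 7.09, 6.82 and 7.11. The oestrogen receptors Esr1 (4.42 ± 0.33) and Esr2 (4.22 ± 0.23) were dim. Among receptors for purines, prostanoids, cytokines and growth factors, Fgfr2 (9.06 ± 0.64), Fgfr1 (8.65 ± 0.33), Il6st, the shared signal transducer of interleukin 6 cytokines (8.64 ± 0.18), and Tgfbr1 (8.44 ± 0.083) were the bright members of 31. P2ry1, an ADP receptor, was variable at 6.65, 4.89, 6.36, 6.99 and 5.81: pool 2 lay below the dim level and pool 4 was highest. Kdr, a receptor of vascular endothelial growth factor, was variable at 7.10, 6.55, 7.76, 7.54 and 8.15, and Ptger3, a prostaglandin E2 receptor, at 4.92, 6.27, 5.53, 4.96 and 4.98. Il1r1, the interleukin 1 receptor, read 6.88, 6.70, 7.01, 6.41 and 7.47.

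**Figure D1:**
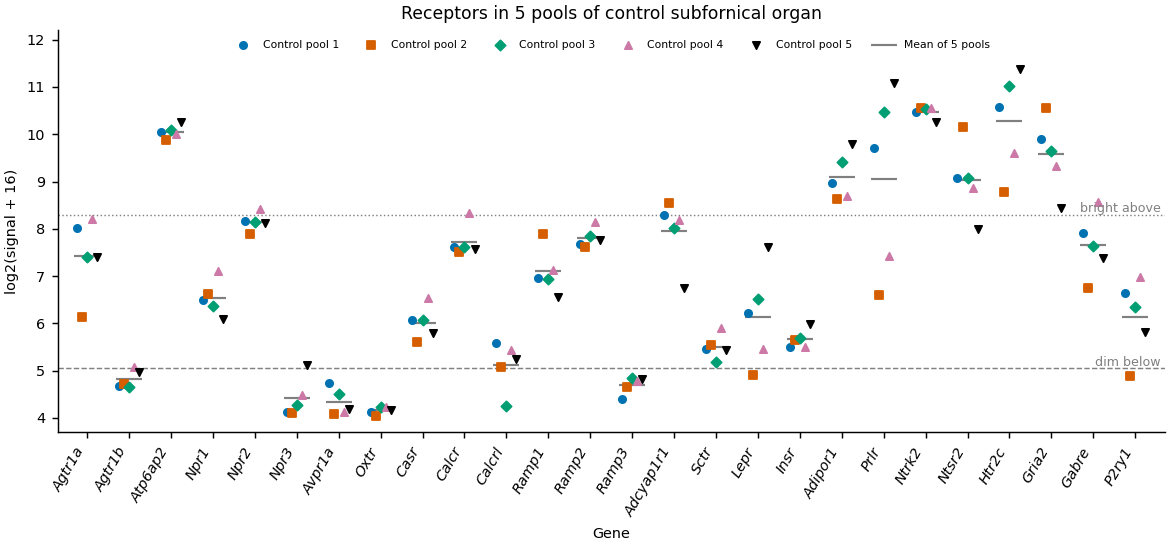
Receptor genes in the 5 control pools. The vertical axis is log2(signal + 16), each symbol is one pool, the grey bar is the mean of the 5, and the dotted and dashed lines are the bright and dim levels (8.30 and 5.06). Agtr1a is lowest in pool 2 (6.14), and Prlr spreads from 6.59 in pool 2 to 11.09 in pool 5.

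Peptide genes divided between dim precursors and bright secretory proteins. Of 86 measured, 15 were bright (17.4%, near the 16.7% of all genes) and 26 were dim (30.2%, against 19.1%). Of the 60 not dim, 19 were variable (31.7%, against 10.0%). The precursors themselves were mostly low, with 21 of 51 dim and 3 bright.

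The 3 bright precursors were oxytocin, vasopressin and angiotensinogen. Oxt read 8.73, 10.89, 10.82, 8.86 and 9.05 and Avp 8.22, 10.46, 9.90, 8.03 and 8.09. Both were higher in pools 2 and 3 than in any of the other pools. Both are known as products of magnocellular neurons of the supraoptic and paraventricular nuclei. Sim1 and Otp, transcription factors of those nuclei, were dim in the same pools (4.29, 4.52, 4.41, 4.44 and 4.67 for Sim1 and 4.21, 4.54, 4.11, 4.04 and 4.53 for Otp). Pdyn, the dynorphin precursor, which these neurons also make, read 4.47, 6.66, 6.55, 5.73 and 5.77, with pools 2 and 3 highest and pool 1 below the dim level. Penk, the enkephalin precursor, read 6.22, 7.24, 7.42, 6.63 and 6.74 and again was highest in pools 2 and 3. Pools 2 and 3 were the highest pair for 9 of the 30 precursors not dim, against 7.96% of all genes not dim. Among the 12 variable precursors they were so for 5, against 15.6% of all variable genes. Both counts include Oxt, Avp, Pdyn and Penk, whose values drew attention to this pair, so they are no independent evidence of it. The source of the Oxt and Avp signal was not tested, and the values of Sim1 and Otp lie near the floor.

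Agt, angiotensinogen, the precursor of angiotensin II and a product of astrocytes in brain, read 8.94, 9.81, 9.11, 9.06 and 7.68. Pool 5 lay below the other pools. Pmch, the precursor of melanin-concentrating hormone, read 8.18, 6.29, 9.61, 8.55 and 7.34, and Hcrt, that of the orexins, 6.78, 7.97, 7.46, 7.77 and 6.34. Both are peptides of the lateral hypothalamus, and they did not share an order of pools: Pmch was highest in pool 3 and lowest in pool 2, Hcrt highest in pool 2 and lowest in pool 5. Of peptides from the arcuate and paraventricular nuclei, Pomc (4.27 ± 0.36) and Crh (4.70 ± 0.28) were dim.

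Adcyap1, the precursor of pituitary adenylate cyclase-activating polypeptide, read 8.67, 7.38, 8.01, 8.85 and 7.98, lowest in pool 2 and highest in pool 4. Another probe set of it gave 7.60, 6.38, 7.07, 8.03 and 7.03, the same ends. Cck, cholecystokinin, read 8.22, 7.67, 7.85, 8.53 and 7.85, Nucb2, the nesfatin precursor, 8.02, 7.39, 7.90, 8.05 and 8.39, and Cartpt, the precursor of cocaine- and amphetamine-regulated transcript, 7.05, 7.26, 7.71, 7.17 and 6.88. Nmb, neuromedin B, was variable at 7.23, 8.01, 7.11, 7.05 and 6.58, and Apln, apelin, at 6.93, 7.80, 6.66, 6.54 and 6.42, both highest in pool 2. Nppc, C-type natriuretic peptide, was low and variable at 5.98, 5.32, 5.43, 6.54 and 5.55, highest in pool 4. Nppa, the atrial peptide, read 5.42, 6.39, 5.52, 5.42 and 5.35, with pool 2 apart from the rest. Tac1, Tac3, Vip, Nts and Grp were dim.

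Of 16 granins and neurotrophic factors, 8 were bright and 2 dim. Scg2, secretogranin II, read 10.46, 10.16, 10.11, 10.53 and 9.93, Pcsk1n, an inhibitor of the prohormone convertase PC1, 10.21, 10.41, 10.33, 10.52 and 9.89, and Scg5, the chaperone of PC2, 10.25, 10.35, 10.05, 10.45 and 9.67. Chgb and Chga, the chromogranins, read 9.36 ± 0.38 and 8.68 ± 0.39. Each of these 5 was highest in pool 4 and lowest in pool 5. Scg3 was variable at 9.82, 10.43, 9.54, 9.91 and 8.94, and Vgf, an activity-dependent granin, was not bright in any pool at 7.53, 8.0, 7.56, 8.25 and 7.02. Bdnf, brain-derived neurotrophic factor, was low and variable at 5.78, 6.74, 5.54, 5.32 and 4.36, with pool 2 highest and pool 5 below the dim level. Igf2, insulin-like growth factor 2 of choroid plexus and meninges, was bright and variable at 10.66, 9.27, 11.29, 9.82 and 11.69. Vegfa read 8.65, 7.47, 8.56, 8.50 and 9.07 and Fgf1 8.30, 7.23, 8.48, 8.37 and 8.86, both lowest in pool 2 and highest in pool 5.

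Among the enzymes that make or degrade peptides, Cpe, carboxypeptidase E, was nearly constant at 11.67, 11.61, 11.68, 11.60 and 11.68, with an SD of 0.040. Pam, which amidates peptides, was bright at 9.74, 9.41, 9.59, 9.89 and 9.40. Ace, angiotensin-converting enzyme, was bright on average and the most variable of the group: 9.01, 6.04, 9.84, 8.52 and 10.58. Another probe set of Ace read 8.74, 5.40, 9.27, 8.17 and 9.86, in the same order. Enpep, aminopeptidase A, which converts angiotensin II to angiotensin III, read 5.63, 4.48, 5.45, 5.88 and 6.04, with pool 2 below the dim level. Another probe set of Enpep was dim (5.01 ± 0.39) and placed pool 3 highest and pool 5 lowest. Pcsk2, the convertase PC2, read 5.38, 5.10, 5.68, 5.84 and 5.20, and Prcp, which cleaves angiotensin II, 5.92, 5.68, 5.02, 5.73 and 4.83. Lnpep, Dpp4 and Cma1, the mast cell chymase, were dim.

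Of 192 ion channel and transporter genes, 27 were bright (14.1%, against 16.7% of all genes) and 48 dim (25.0%, against 19.1%). Of the 144 not dim, 39 were variable (27.1%, against 10.0%). Bright members were mostly pumps, carriers and mitochondrial pores.

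Nalcn, the sodium leak channel that sets resting excitability, was the brightest of the voltage-gated sodium family at 9.44, 9.34, 9.09, 9.61 and 8.58. The auxiliary subunits Scn2b (8.86, 9.73, 8.83, 8.90 and 7.74) and Scn3b (8.62, 9.02, 8.37, 8.78 and 7.96) were bright too. Scn9a, Nav1.7, read 8.45, 7.45, 7.74, 8.67 and 7.67 and was highest in pools 4 and 1. Scn7a, the sodium-sensing channel Nax of glia in the circumventricular organs, read 6.10, 5.11, 5.67, 6.74 and 6.05: pool 4 was highest and pool 2 lowest, as for Scn9a. Scn1a, Scn2a and Scn3a, the brain sodium channel subunits, were instead highest in pool 2 and lowest in pool 5 (7.03 ± 0.63, 7.66 ± 0.51 and 7.05 ± 0.58). Scn8a, Scn10a and Scn11a were dim.

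In the epithelial, acid-sensing and TRP group, 1 of 27 was bright and 6 were dim. Pkd2, polycystin 2, was the bright one (8.76, 8.37, 8.70, 8.67 and 8.83). Trpm3 read 8.53, 7.07, 8.48, 8.11 and 9.19, just outside the bright level, and Trpm7 8.24 ± 0.23. Trpv4, an osmosensitive channel also known from choroid plexus epithelium, had the widest spread of the group: 5.92, 4.15, 6.83, 4.19 and 7.75. Pools 2 and 4 lay below the dim level, and pool 5 was highest, in the order of the choroid plexus markers. Trpv1, the capsaicin receptor, was dim at 4.68, 4.50, 4.25, 4.50 and 4.19, and its 2 other probe sets were dim as well. The subunits of the epithelial sodium channel were low but not dim, Scnn1g at 5.84 ± 0.35, Scnn1b at 5.64 ± 0.17 and Scnn1a at 5.18 ± 0.27. Asic2, an acid-sensing channel, was variable at 7.31, 8.25, 7.27, 7.58 and 6.43. Piezo2, Trpm8 and Trpc5 were dim.

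None of 56 potassium channel genes was bright, and 15 were dim. Kcna2, a voltage-gated channel of axons, had the highest mean (8.14, 8.58, 8.05, 8.13 and 7.48), followed by Kcnd2, an A-type channel (8.05, 8.05, 7.78, 8.03 and 7.11). Kcne2, the auxiliary subunit known from choroid plexus epithelium, varied most: 7.94, 5.34, 8.40, 5.84 and 9.62. Kcnk1 (6.30, 5.16, 7.27, 5.63 and 7.31) and Kcnq1 (5.87, 4.85, 6.19, 5.39 and 7.29), its partner in epithelia, followed the same order of pools. Kcna1 was variable with pool 4 lowest (7.49, 8.05, 7.69, 5.76 and 7.18), and Kcnc1 and Kcnj16 with pool 2 highest and pool 5 lowest (7.33 ± 0.65 and 6.28 ± 0.67). Kcnj10, the astrocyte channel Kir4.1, was dim on its probe set at 4.44 ± 0.23.

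Of calcium and cyclic nucleotide-gated channels, Itpr1, the inositol trisphosphate receptor, was the bright member and was variable at 8.69, 7.50, 9.31, 8.16 and 10.05. Cacna2d1, the target of gabapentin, read 8.40, 8.13, 8.10, 8.64 and 7.83, and Cacna1b, the N-type channel, 7.58, 7.32, 7.11, 7.74 and 7.15. Cacng3, a subunit of AMPA receptor complexes, was variable at 5.51, 7.13, 5.82, 5.04 and 4.14, highest in pool 2 and lowest in pool 5. Hcn2, a pacemaker channel, read 6.39, 6.77, 6.82, 6.66 and 5.90, Hcn3 5.68 ± 0.33, and Hcn4 was dim. Cacna1e, Cacna1g and 8 others were dim too.

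Aqp4, the water channel of astrocytes, was among the brightest transport genes (11.23, 11.47, 11.01, 10.93 and 10.77) and not variable (SD 0.27). Its 2 dimmer probe sets had SDs of 0.44 and 0.46, and all 3 were highest in pool 2. Aqp1, the water channel of choroid plexus, read 7.14, 5.17, 8.61, 6.09 and 9.11 instead, with pool 2 near the dim level. Another probe set of Aqp1 spread less, at 6.29, 6.17, 6.87, 6.27 and 6.85 (SD 0.34), with pool 3 highest and pool 2 lowest. The remaining aquaporins were dim or low, Aqp2, Aqp3 and Aqp5 dim and Aqp9 at 5.21, 6.07, 4.97, 5.12 and 5.11, with pool 2 apart. The connexin Gja1 of astrocytes was bright at 11.05, 11.63, 10.99, 10.95 and 10.38. Gjb1, the connexin of oligodendrocytes, was low and variable at 5.17, 6.20, 5.77, 4.62 and 4.22. Ano1, a calcium-activated chloride channel, read 8.66, 6.50, 8.26, 9.33 and 8.46, with pool 4 highest and pool 2 far below the rest. Vdac1, Vdac2 and Vdac3, pores of the outer mitochondrial membrane, were bright with SDs of 0.19, 0.098 and 0.11. Cftr was dim (4.86 ± 0.31).

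The sodium pump and ion transporters held 12 bright genes of 31. The pump subunits Atp1b1 (11.06, 11.23, 11.38, 11.06 and 11.29) and Atp1b2 (10.34, 10.45, 10.40, 10.42 and 10.45) were bright and steady. Slc4a2, an anion exchanger of the basolateral membrane in choroid plexus, ranged 14.5-fold: 8.38, 6.41, 9.71, 7.08 and 10.27. Slc4a10 (9.99, 9.16, 10.23, 8.81 and 10.71) and Atp2b3 (9.75, 8.40, 10.53, 8.88 and 11.03), a plasma membrane calcium pump, also had pool 5 highest. Slc12a2, the sodium-potassium-chloride cotransporter NKCC1, read 10.06, 9.99, 10.39, 8.94 and 10.80, with pool 4 lowest, and Slc12a5, the neuronal potassium-chloride cotransporter KCC2, 7.80, 8.31, 7.88, 7.88 and 7.57. Fxyd7, a neuronal regulator of the pump, was variable with pool 2 highest (6.72, 8.28, 6.87, 6.02 and 6.23), and Fxyd1, phospholemman, with pool 5 highest (9.24, 8.74, 9.68, 8.66 and 10.23).

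**Figure D2:**
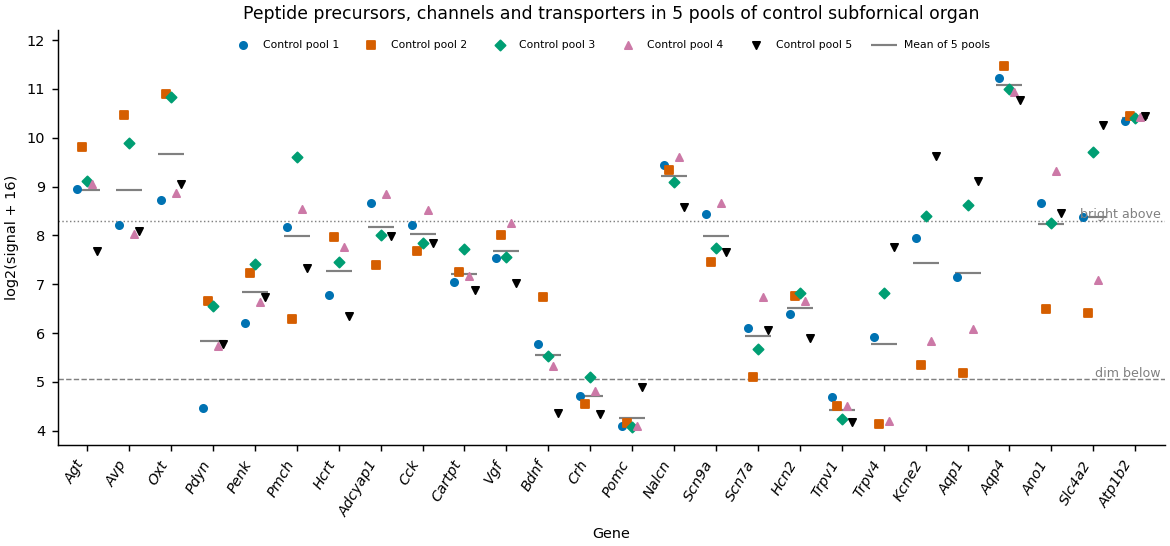
Peptide precursors, channels and transporters in the 5 control pools, on the same axis and with the same symbols as the receptors. Oxt and Avp are highest in pools 2 and 3 (10.89 and 10.82 for Oxt), Kcne2 and Aqp1 in pool 5 (9.62 and 9.11), and Atp1b2 is steady at 10.34 to 10.45.

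Cell type markers were brighter than the other classes. Of 244, 86 were bright (35.2%, against 16.7% of all genes) and 31 dim (12.7%, against 19.1%). They were also more variable, with 88 of 213 not dim (41.3%, against 10.0%). Neurons and astrocytes were plain in every pool. Of 19 neuronal genes, 13 were bright and none dim: Snap25, a synaptic membrane protein, read 10.77, 11.19, 10.74, 10.80 and 10.08, Map2 10.51, 10.79, 10.42, 10.63 and 10.16, Gap43 10.59, 10.24, 10.35, 10.78 and 9.94 and Vsnl1 10.54, 11.02, 10.46, 10.41 and 9.44. Pool 5 was lowest for 18 of the 19. The neurofilaments had the widest spread, Nefh at 9.27, 10.55, 9.43, 8.48 and 6.66, Nefm at 8.43, 10.17, 8.82, 7.65 and 6.28 and Nefl at 8.73, 10.40, 8.90, 8.36 and 6.74. In each, pool 2 was highest and pool 5 lowest.

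Both excitatory and inhibitory markers were present. Slc17a6, the vesicular glutamate transporter VGLUT2 of subcortical neurons, read 9.18, 10.42, 9.15, 9.03 and 7.56, and its cortical and hippocampal relative Slc17a7 6.13, 7.39, 6.22, 5.62 and 5.41. Gad1, a GABA-synthesising enzyme, read 9.63, 10.20, 9.42, 9.72 and 8.21, and Slc32a1, the vesicular GABA transporter, 6.87, 7.38, 7.14, 7.41 and 5.99. Pool 5 was lowest for all 4. Tbr1, Neurod1 and Neurod6, transcription factors of cortical and hippocampal neurons, were dim. The calcium-binding proteins Calb1 (8.48, 9.75, 8.50, 8.37 and 7.19) and Calb2 (10.08, 10.91, 9.97, 9.64 and 8.63) were bright and highest in pool 2. Among monoaminergic and cholinergic genes none was bright and 6 of 11 were dim, Dbh and Chat among them, while Hdc, histidine decarboxylase, read 6.54 ± 0.40.

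Genes tied to neurons of the subfornical organ were bright in 3 of 11 (27.3%, against 16.7% of all genes) and dim in 2 (18.2%, against 19.1%). Whether they mark the tissue was not tested. Etv1, a transcription factor of its excitatory neurons, was bright at 9.72, 9.24, 9.65, 10.30 and 9.49, and Lhx2 read 9.45, 8.24, 8.94, 9.80 and 8.73 and Zbtb20 10.44, 9.95, 10.22, 10.38 and 10.32. Lhx9 read 6.21 ± 0.41, Foxp1 7.17 ± 0.18 and Foxp2 5.93, 7.10, 5.15, 5.35 and 4.95, the last with pool 2 highest. Nos1, the neuronal nitric oxide synthase of the same excitatory neurons, was dim on its probe set at 5.21, 4.68, 4.86, 4.90 and 4.77. Tbr1, which is in this list too, was the other dim member at 4.24 ± 0.16. Of the 9 members not dim, 6 were highest in pool 4 and 5 were lowest in pool 2.

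Astrocyte genes were bright in 11 of 16 and dim in none. S100b read 11.34, 11.65, 11.38, 11.29 and 10.90, Slc1a3, the glutamate transporter GLAST, 11.38, 11.30, 11.33, 11.45 and 11.05, and Gfap 10.99, 11.17, 10.78, 10.81 and 10.29. Acsbg1 (7.57, 8.79, 7.62, 7.16 and 6.81) and Aldh1l1 (7.33, 8.06, 7.02, 6.84 and 6.56) varied more, and 11 of the 16 were highest in pool 2 and lowest in pool 5. Slc1a2, the transporter GLT-1, was low on its probe set (5.43 ± 0.57). Of the tanycyte and radial glia genes, Vim read 10.44, 10.01, 10.32, 10.76 and 10.49, Sox2 9.66, 9.63, 9.53, 9.87 and 9.17, and Crym, a thyroid hormone-binding protein, 8.69, 7.01, 8.51, 9.13 and 8.28, with pool 2 far below the rest. Slco1c1, a thyroid hormone transporter, was highest in pool 5 (8.61, 7.99, 9.58, 7.23 and 10.33), and Fabp7 in pool 2 (9.82, 10.63, 9.59, 9.47 and 8.85). Rax and Dio2, markers of hypothalamic tanycytes, were dim.

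Ependymal genes of motile cilia were all above the dim level, 4 of 10 bright. Dynlrb2 read 9.57, 9.91, 9.90, 9.38 and 10.09, Tekt1 8.31, 7.70, 8.44, 8.26 and 9.04 and Foxj1, the transcription factor of ciliated cells, 7.51, 6.90, 8.31, 7.30 and 8.36. Pool 5 was highest for 7 of the 10. Pool 5 was highest and pool 2 lowest for 5 of the 10, against 16.9% of all genes not dim. Tmem212 was an exception, at 7.18, 8.75, 8.10, 7.62 and 7.12 with pool 2 highest.

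Oligodendrocyte genes were bright in 9 of 16 and variable in 14 of the 15 not dim. Mobp, a myelin protein, read 11.66, 12.14, 11.64, 10.56 and 10.20, Mog, on the outer surface of myelin, 8.83, 10.15, 9.05, 7.72 and 7.62, and Opalin 8.10, 9.62, 8.51, 6.91 and 6.64. Mbp, myelin basic protein, was near the top of the signal range and changed less on its brightest probe set (11.62, 11.74, 11.72, 11.08 and 11.09), but a dimmer one read 8.85, 10.51, 9.78, 7.95 and 7.09. Pool 2 was highest for 14 of the 15, and the lowest was pool 5 for 10 of them and pool 4 for 5. Car2, carbonic anhydrase 2, known from oligodendrocytes and choroid plexus alike, departed with 10.50, 10.53, 10.92, 8.96 and 11.41, where pool 5 was highest. Sox10 read 6.65, 7.79, 6.85, 5.46 and 5.84, and Olig2 was dim on its probe set. Of oligodendrocyte precursor genes, Bcas1 read 10.53, 11.23, 10.60, 9.09 and 8.50, whereas Pdgfra (8.39, 8.47, 8.32, 7.95 and 8.79) and Ptprz1 (10.02, 9.99, 9.79, 10.04 and 9.44) were bright and not variable. A dimmer probe set of Ptprz1 did vary, at 8.95, 9.61, 8.51, 8.18 and 7.24, highest in pool 2 and lowest in pool 5.

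None of the 21 microglia and macrophage genes not dim was variable, though their median SD of 0.261 was above the 0.205 of all genes not dim. Ctss, cathepsin S, read 10.14, 10.64, 10.05, 9.88 and 9.58, Csf1r 7.90, 7.97, 7.79, 7.73 and 7.35, and P2ry12, a marker of resident microglia, 7.14, 7.57, 6.73, 6.71 and 6.31. Lyz2 read 9.61, 8.69, 9.44, 9.44 and 9.96 and Cd74, the invariant chain of antigen presentation, 9.10, 8.08, 8.96, 9.05 and 9.24, each lowest in pool 2.

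Vessel genes were present at middle levels. None of 13 endothelial genes was bright or dim, with Ptprb at 8.46, 7.45, 7.86, 8.73 and 8.05 and Emcn at 7.47, 6.74, 7.20, 7.56 and 8.04. Plvap, the diaphragm protein of fenestrated capillaries, read 6.43, 5.57, 6.54, 6.88 and 7.18, and Esm1, a proteoglycan of endothelial cells, 6.45, 4.56, 6.43, 6.62 and 7.33. Both were lowest in pool 2 and highest in pool 5, as were 5 of the 7 genes in that list. That pair of ends was held by 16.9% of all genes not dim and 32.4% of all variable genes. Barrier genes were above the floor too, with Slc2a1, the glucose transporter of the blood-brain barrier, at 8.30, 8.44, 8.48, 8.36 and 8.27 and Cldn5, a tight junction protein, at 7.93, 8.21, 8.02, 8.47 and 7.34. Pool 5 was lowest for 8 of these 10, and 5 of the 10 also had pool 2 highest, against 15.5% of all genes not dim. Of 12 smooth muscle and pericyte genes none was bright and 2 were dim, with Myh11 at 7.61, 6.93, 7.32, 7.85 and 7.66 and Rgs5 at 6.79, 6.51, 6.78, 6.92 and 7.09. Fibroblast and meningeal genes were bright in 8 of 16: Dcn read 9.36, 7.51, 8.78, 9.65 and 9.66, Mgp 9.76, 8.28, 9.74, 10.16 and 10.61, and Igfbp2, also a product of choroid plexus, 10.83, 8.89, 11.60, 10.03 and 11.84. Pool 2 was lowest for 11 of the 14 not dim, and 9 of the 14 also had pool 5 highest, against 16.9% of all genes not dim. Hbb, a haemoglobin chain of red cells, was bright at 10.29, 10.61, 10.51, 10.35 and 11.15, and markers of T cells, B cells and neutrophils were dim in 5 of 6.

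Genes of neighbouring regions gave a mixed picture. Tcf7l2, of the thalamus and habenula, read 8.79, 8.35, 8.72, 8.94 and 8.50, Zic4, a zinc finger factor of the medial forebrain, 9.17, 8.41, 8.98, 9.37 and 9.20, and Prox1, of the dentate gyrus and thalamus, 6.49, 7.21, 6.48, 6.29 and 5.95. Nkx2-1, of hypothalamus and preoptic area, read 8.62, 6.78, 8.20, 9.04 and 8.29, with pool 2 lowest. Fibcd1, of the hippocampal field CA1, was dim in all pools at 4.13 ± 0.12. Ppp1r1b, the striatal phosphoprotein DARPP-32, was bright and ranged from 7.21 to 9.82 (8.21, 7.55, 9.10, 7.21 and 9.82).

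Choroid plexus markers had the largest median SD of the 40 lists (1.62, followed by 0.918 for oligodendrocyte markers). Of 20 measured, 12 were bright, 2 were dim (Kcnj13 and Car12), and 17 of the 18 not dim were variable. The list includes Prlr, Kcne2, Aqp1, Ace and Igf2, given above. F5, coagulation factor V, read 10.36, 6.48, 10.87, 8.45 and 11.47, Sostdc1, a bone morphogenetic protein antagonist, 10.76, 6.96, 11.27, 8.92 and 11.78, and Cldn2, a claudin of leaky epithelia, 8.32, 5.40, 9.29, 6.55 and 10.44. Pool 5 was highest and pool 2 lowest in each, with folds of 31.9, 28.2 and 32.8. Slco1a5, an organic anion transporter, read 9.07, 5.87, 9.83, 7.14 and 10.61, Folr1, a folate receptor, 9.26, 7.07, 10.31, 8.25 and 10.73, Kl, klotho, 6.66, 4.25, 7.51, 5.60 and 8.29, and Otx2, the homeobox factor of this epithelium, 9.63, 8.11, 9.87, 9.28 and 10.44. Of the 18 genes, 17 followed the single order of pools 5, 3, 1, 4 and 2 from highest to lowest, and 16 did after quantile normalization of the 5 arrays. That order was held by 669 of 11506 genes not dim (5.81%) and by 262 of the 1151 variable genes (22.8%). The median deviation of the 18 genes from their own means was 0.21, -2.06, 1.04, -0.95 and 1.81.

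The exception was Ttr, transthyretin, an abundant product of choroid plexus epithelium, which read 11.79, 11.52, 11.76, 11.90 and 11.79 with an SD of 0.14. Ttr lay at the 99.96th percentile of all probe sets in mean signal. Enpp2, autotaxin, also near the top, kept the order with a smaller range (12.02, 11.03, 12.13, 11.33 and 12.18). The summed signal of the 20 markers ranged from 6769 in pool 2 to 32680 in pool 5, which is 4.83-fold, and 13.8-fold without Ttr and Enpp2. Kl and Tmem72, not dim on average, were at 4.25 and 4.13 in pool 2. How much choroid plexus each pool held was not measured, so a share of tissue and a level per cell cannot be told apart.

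Genes outside the list joined it among the most variable of all genes. Scgb1c1, a secretoglobin, had the largest SD, at 9.85, 5.58, 10.41, 7.42 and 11.22, a 49.9-fold range. Mfrp, a membrane frizzled-related protein of pigment and ciliary epithelium, read 9.86, 6.28, 10.58, 8.16 and 11.31, and Cltrn, collectrin, 8.18, 5.31, 8.72, 6.11 and 9.66. All 3 ran in the order of the choroid plexus markers. So did the receptor, channel and transporter genes Htr2c, Lepr, Adipor1, Trpv4, Itpr1, Kcnq1, Kcnk1, Slc4a2 and Atp2b3 given above. With pool 2 left out, the median SD of the choroid plexus list was 1.16, and with pool 5 left out 1.44, against 1.62 over all pools and 0.205 for all genes not dim.

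Promoters of 3 choroid plexus markers are shown, again as RefSeq windows on GRCr8 from 250 bases before to 50 after the start, 5′ to 3′ along the gene. They lie at chr10:91409879-91410178 (Ace, plus strand), chr4:176963763-176964062 (Slco1a5, minus strand) and chr13:79046407-79046706 (F5, plus strand). Capitals mark matches to TAATCC, the core bound by OTX proteins, or to TATAAA, searched on both strands. TGTTTAC, a forkhead core, was searched too. In Ace the 2 matches overlap, so that they appear as 1 run of capitals, and F5 held no match. These 3 genes and Prlr had the largest SDs among the markers with a promoter entry. The window of Prlr is not printed and held no match.
Ace: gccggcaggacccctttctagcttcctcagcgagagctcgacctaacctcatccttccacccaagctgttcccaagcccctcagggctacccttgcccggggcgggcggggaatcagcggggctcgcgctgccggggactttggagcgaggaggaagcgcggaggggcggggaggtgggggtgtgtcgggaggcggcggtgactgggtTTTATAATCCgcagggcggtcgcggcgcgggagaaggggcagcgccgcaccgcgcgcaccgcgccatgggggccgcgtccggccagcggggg
Slco1a5: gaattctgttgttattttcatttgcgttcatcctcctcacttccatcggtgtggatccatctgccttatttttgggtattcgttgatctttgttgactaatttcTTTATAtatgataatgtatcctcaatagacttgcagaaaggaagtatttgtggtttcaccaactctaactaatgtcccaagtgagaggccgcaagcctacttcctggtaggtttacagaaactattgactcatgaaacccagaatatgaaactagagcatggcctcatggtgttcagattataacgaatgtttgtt
F5: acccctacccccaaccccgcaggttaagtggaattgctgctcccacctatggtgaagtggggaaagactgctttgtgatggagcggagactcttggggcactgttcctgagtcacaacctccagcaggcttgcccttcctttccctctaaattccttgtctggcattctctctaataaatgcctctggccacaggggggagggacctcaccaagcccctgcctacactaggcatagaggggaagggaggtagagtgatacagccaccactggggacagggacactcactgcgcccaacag
Of the 18 choroid plexus markers not dim, 12 had a promoter entry: 1 held TAATCC (8.33%), 3 held TATAAA (25.0%) and none held TGTTTAC. Over all 27457 promoters the shares were 7.11%, 14.26% and 3.76%, and over those of 9562 genes not dim 5.07%, 6.80% and 2.36%. The 199 variable genes with an entry and this order of pools held them at 8.54%, 13.07% and 2.51%. A motif absent from these windows says only that its letters are not there.

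The opposite order, highest in pool 2 and lowest in pool 5, was the commonest pair of ends among variable genes, with 406 of 1151, beside 373 with pool 5 highest and pool 2 lowest. Its largest SDs belonged to Eomes, a T-box factor of excitatory neuron lineages, at 7.98, 9.85, 8.17, 6.80 and 5.01, and to Spp1, osteopontin, at 8.06, 9.87, 8.46, 7.33 and 5.46. The neurofilaments, Opalin, Gria3, Grm3 and Bcas1, given above, were also among the 12 with the largest SD, as was Hapln2, a link protein of the node of Ranvier, at 7.33, 8.72, 7.41, 6.11 and 6.02. Neuronal, astrocyte and oligodendrocyte lists all had this pair of ends in most of their members not dim: 12 of 19, 11 of 16 and 10 of 15, against 15.5% of all genes not dim. Their summed signals in pool 2 and pool 5 were 19670 and 7759 for neurons, 22614 and 12555 for astrocytes, and 22002 and 9015 for oligodendrocytes. All arrays share the same trimmed mean of signal (100.02 to 100.03), so a value is relative to the other transcripts of its array.

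Another pattern, highest in pool 4 and lowest in pool 2, was that of Agtr1a. It was held by 123 of 1151 variable genes and by 9.52% of all genes not dim. Its largest SDs were those of Dct, dopachrome tautomerase, at 9.94, 6.39, 9.40, 10.49 and 9.79, Csap1 at 10.40, 6.80, 10.06, 10.76 and 10.06, and Crygs, a lens-type crystallin, at 10.0, 7.11, 9.75, 10.46 and 10.05. Slc22a3, an organic cation transporter, followed at 9.20, 6.56, 9.08, 9.76 and 8.88. Six6, a homeobox factor of ventral forebrain and eye, stood at rank 10 by SD, at 7.0, 4.86, 6.68, 7.34 and 6.67. In all 5 genes, pools 1, 3 and 5 stood between, and pool 2 was far below every other pool. Listed genes with this pair of ends included Agtr1a, Calcr, Casr, Adcyap1, Scn9a, Scn7a, Ano1, Gabre, P2ry1, Crym, Lhx2, Etv1 and Nkx2-1. Members of the list of subfornical organ neuron genes had it in 4 of 9, calcitonin family receptors in 3 of 5 and tanycyte genes in 4 of 10.

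**Figure D3:**
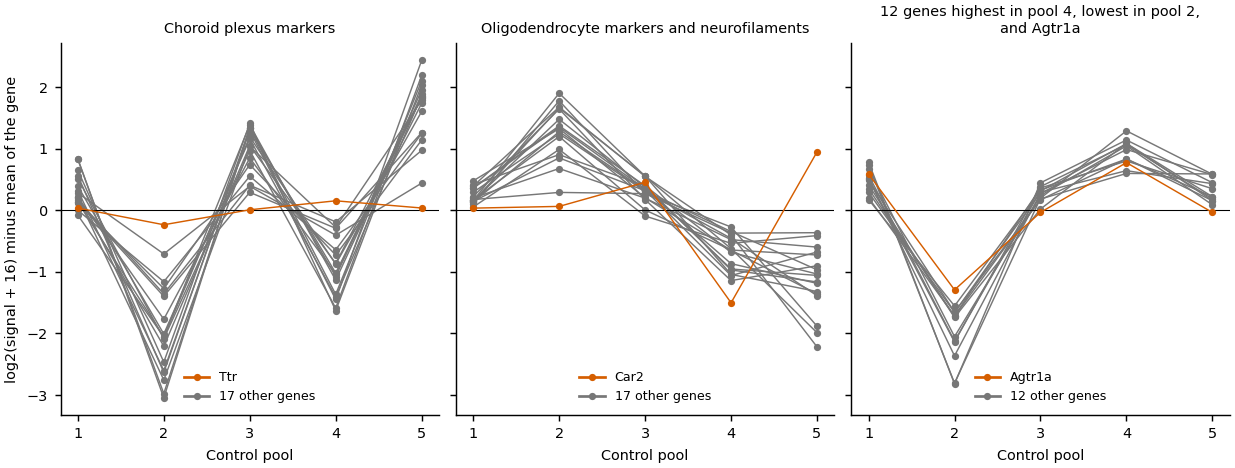
Deviation of each gene from its own mean over the 5 control pools, on the log2(signal + 16) scale, for choroid plexus markers, for oligodendrocyte markers with the 3 neurofilaments, and for 12 genes with the widest spread among those highest in pool 4 and lowest in pool 2 beside Agtr1a. Lines join the values of one gene and imply no order of the pools; Ttr on the left and Car2 in the middle are drawn in orange as the departures from their lists, and Agtr1a on the right.

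Other probe sets of the same genes were read as a check on single probe sets. Of 171 variable listed genes, 39 had another probe set that was not dim, 47 such probe sets in all. The same pool was highest in 40 of the 47, the same pool lowest in 42, and both in 36.

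**Figure D4:**
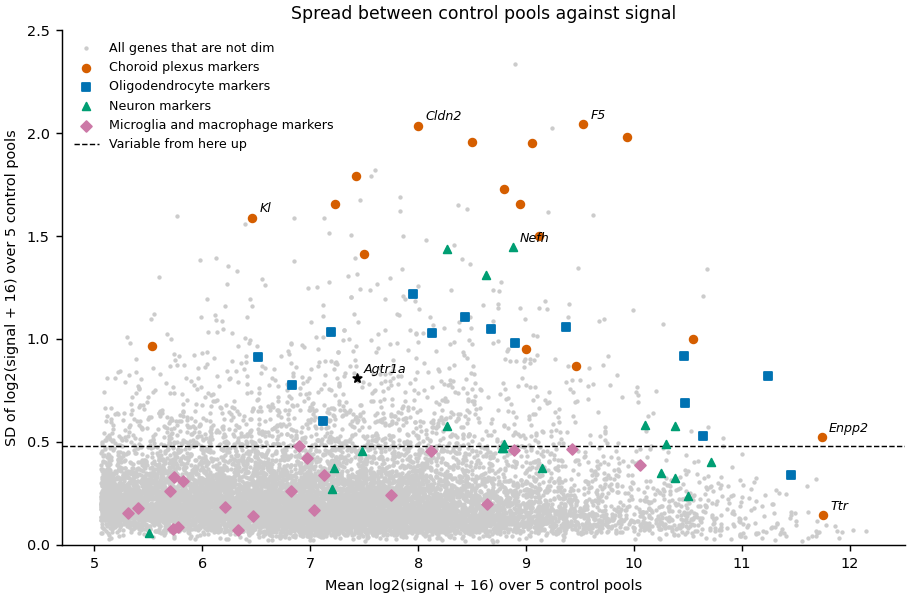
SD over the 5 control pools against mean log2(signal + 16) for all genes that are not dim (grey points), with 4 lists marked. The dashed line is the variable level (0.480); choroid plexus markers reach SDs of 2.04 while Ttr is at 0.14, oligodendrocyte markers lie mostly near 1, and microglia and macrophage markers stay below the line.

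Of the 20 genes with the highest mean, 17 had an SD below the 0.205 median of all genes not dim. The others were Ptgds, Clu (SD 0.320) and Enpp2, which was variable. Cst3, cystatin C, had the highest mean (12.11, 12.10, 12.19, 12.12 and 12.26), followed by the mitochondrial COX2 (12.04, 11.96, 12.05, 11.96 and 12.13) and ribosomal Rps23 (11.90, 11.98, 11.88, 11.86 and 12.0). Apoe, the lipoprotein of astrocytes, read 11.88, 11.91, 11.92, 11.90 and 11.71, Mt3, a brain metallothionein, 11.69, 11.70, 11.72, 11.76 and 11.61, and Ptgds, prostaglandin D synthase of meninges, choroid plexus and oligodendrocytes, 11.46, 11.52, 11.84, 11.26 and 11.94. Among bright genes the smallest SDs were those of Riok3 (0.015), Rpl19 (0.016) and Sec22b (0.016). Genes at the edges of the classes were Gabrb2 just inside the bright level (8.33 ± 0.88) and Trpm3 just outside it (8.28 ± 0.78), and Trpm4 just above the dim level (5.06 ± 0.059) and Drd3 just below it (5.05 ± 0.17). A gene there changes its class with a small change in signal.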

How the data were processed

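The values the authors deposited are linear signal intensity, 1 per probe set and array. Per the submitters' processing notes the software was GCOS 1.2, and its settings are not given in the sources at hand. The 5 control arrays have trimmed means of 100.02 to 100.03 (2% removed at each end), so no further normalization was applied. Their columns were read by title, and 10 columns of deprived animals were not used. The annotation gives 1 symbol to 20826 of 31042 non-control probe sets, several to 436 and none to 9780, and 20758 of those with 1 symbol matched a RefSeq gene. A gene is its brightest probe set among those assigned to it alone, as log2(signal + 16). Percentile levels for bright, dim and variable genes were taken over the control arrays only. Calculations used numpy 2.4.6 and pandas 2.3.3 under Python 3.11.15, with plots by matplotlib 3.10.9, and were tested on simulated data.

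There is 1 group, so no test was run and no p-value is given; the number of arrays limits the precision, and detection calls were not used. The 40 lists named 834 symbols, of which 746 were measured. The lists and the question were chosen with earlier results of these data known. Named genes are, per list, up to 4 with the highest mean, 3 variable ones with the highest SD and 2 dim ones, with the 20 brightest, the 20 most variable and the 10 steadiest bright genes overall and some chosen for water, salt and energy balance. Other genes were named after their values were seen. Alternatives tried were an offset of 1 or 64, quantile normalization, centring on the median, other percentile levels, no filter on dim genes, the mean of all probe sets, the median absolute deviation, SDs ranked in 20 bins of the mean, and leaving out each pool. Promoters are RefSeq sequences of build GRCr8.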

Additional observations from a re-analysis of the deposited data

Results flagged for a closer look

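Of 310 genes named, 22 (7.1%) had 1 pool standing apart, meaning that the gap from the highest or lowest pool to its neighbour exceeded 0.71 of the range of the 5 pools. Chance gives about 1 in 20, and the share over all genes not dim was 5.1%. The 310 named genes include dim ones, and some were named for their SD or after their values were seen. These shares are therefore not a like comparison.

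Pool 2 stood apart for 9 of the 22. It was below the other pools for Csap1 (0.824), Crygs (0.787), Cd74 (0.754), Dct (0.733), Six6 (0.727) and Slc22a3 (0.724), and for the dim kinin receptor gene Bdkrb2 (0.8). It was above them for Nppa (0.833) and Aqp9 (0.779).

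Pool 5 stood apart for 8 genes. It was below the other pools for Apoe (0.817), Grin1 (0.734) and Kcnd2 (0.715), and above them for Ghsr (0.802) and for the dim genes Scn10a (0.968), Pomc (0.918), Esr2 (0.828) and Npy2r (0.723). Pool 4 was highest for Calcr (0.858) and for the dim Gcgr (0.796). Pool 1 was highest for the dim genes Prl (0.853) and Fibcd1 (0.843), and pool 3 was lowest for the dim Lnpep (0.768). The dim genes lie near the signal of the bacterial control probe sets.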

How the results depend on the processing

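The counts of bright, dim and variable genes in the 4 classes were recomputed under 15 alternatives. Of 180 values, 169 stayed within 1.5 times the count reported. Part of them could not change. Bright counts do not depend on the dim level, and dim and variable counts do not depend on the bright level. Neither bright nor dim counts depend on the filter for dim genes or on the measure of spread. The share that stayed is therefore not a measure of stability. With bright set at the 95th percentile, 9 receptor, 9 peptide, 17 channel and 54 cell type marker genes were bright. With the mean of all probe sets, 6 receptor and 15 channel genes were bright. With dim set below the 50th percentile, 133 receptor, 47 peptide, 93 channel and 72 cell type marker genes were dim. By the median absolute deviation, 11 peptide genes were variable. These changes follow from the altered levels, except for the last and for the mean of all probe sets, where the cause was not tested. Leaving out 1 pool at a time gave 29 to 33 variable receptor, 17 to 20 peptide, 36 to 45 channel and 79 to 91 cell type marker genes. Members changed too: by the median absolute deviation, 18 of the 31 variable receptor genes and 9 of the 19 variable peptide genes stayed variable. SDs of the 310 named genes changed by over 1.5 times for 146 by that measure, 130 with offset 64 and 94 with offset 1. Without pool 2 this held for 65, without pool 5 for 61, and under the other alternatives for fewer. The shared order of the choroid plexus markers was held by 17 of 18 in the deposited values, by 16 after quantile normalization (Ttr and Enpp2 departing) and by 15 with the mean of all probe sets (Ttr, Otx2 and Igf2 departing). No paired analysis was possible because there is 1 group and no test. Dim values lie near the bacterial controls, so orders of pools there carry little information.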
